A study of Mus musculus with 1615 samples.

Results

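The 10 genes described here encode immediate-early transcription factors: Fos, Fosb, Jun, Junb, Jund, Egr1, Atf3, Nr4a1, Nr4a2 and Nr4a3. They were chosen by name, and all 10 were found among the 46517 gene identifiers of a count table of single cells from mouse colon. Their totals over 1615 cells ran from 4187 counts for Nr4a3 to 621547 counts for Fos. Their levels are given for 9 classes of cells. The choice by name applies no measured value, although earlier results of these data were known when the genes were chosen.

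The cells were sorted by fluorescence from mice that carried reporter transgenes and were made into Smart-Seq2 libraries, in which full-length complementary DNA of each cell is sequenced. Per the labels, the tissue was digested with a commercial enzyme mix for skeletal muscle to which collagenase IV-S was added. The cells came from 11 mice on 13 plates, and the mouse was taken as the replicate. The line ACTA2GFP:CSPG4dsRED gave the female 20GG79:1 on plate colon_504s with 359 cells, the male 20GG79:6 on plate colon_502s with 242 cells, and the female 20GG95:3 on plates colon_053s and colon_506s with 186 and 319 cells. The line ACTA2GFP gave 19CB34:7 and 19CB38:5 with 5 and 8 cells, and CSPG4dsRED gave 19CB27:3 on plate colon_516s with 117 cells. The line PDGFRbGFP gave 18CB155:7 on plate colon_073s with 9 cells, 19CB4:5 on plate colon_075s with 80 cells, and a further mouse on plates colon_685s and colon_686s with 119 and 80 cells. The line PDGFRaH2bGFP gave 18CB109:10 on plate colon_1075s with 28 cells and 18CB39:3 on plate colon_439s with 63 cells. All mice outside the dual reporter line were labelled male, and none was labelled as treated. By their names, the lines report Acta2, Cspg4, Pdgfrb or Pdgfra. No label states how the cells were gated, so the share of each class among the cells is that of the sort and not of the tissue. The age label spans all animals of the series and gives no age for a mouse, and the tissue label reads colon while the text of the protocol names the heart.

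Each cell held between 45388 and 1046988 gene counts with a median of 194180, and a median of 4657 genes was detected per cell. Clustering without the 10 genes gave 18 clusters, each of which was named from marker genes, and the classes are called by those names with "-like". Visceral smooth muscle-like cells (544) were led by Hhip, Actg2 and Cnn1, and vascular smooth muscle-like cells (102) by Nrip2, Rgs4, Pln and Notch3. Pericyte-like cells (192) were led by Notch3, Ndufa4l2 and Rgs5, fibroblast-like cells (210) by genes such as Dpt and Pdgfra, and glia-like cells (42) by Gpr37l1 and Sox10. Blood endothelium-like cells (357) were led by Plvap and Flt1, lymphatic endothelium-like cells (80) by Mmrn1, Lyve1 and Flt4, epithelium-like cells (59) by Krt8 and Epcam, and immune-like cells (29) by C1qb and Lyz2. The tissue label was met by smooth muscle, epithelium and enteric glia markers of a gut wall. Every plate held 1 mouse, and nearly every mouse was on 1 plate, so plate, mouse, reporter line and sex cannot be told apart. The exceptions are 20GG95:3 and the mouse of plates colon_685s and colon_686s. These had a pair of plates each, within which plates can be compared. Marker genes of another class, at least 2 per cell, were seen in 78 of 102 vascular smooth muscle-like cells, 141 of 544 visceral smooth muscle-like cells, 102 of 192 pericyte-like cells and 62 of 80 lymphatic endothelium-like cells.

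Immediate-early genes are transcribed within minutes of a stimulus from factors that are already present in the cell, without new protein synthesis. Fos and Fosb proteins form dimers with the Jun proteins to make AP-1, which binds DNA through a basic leucine zipper. Egr1 is a zinc finger factor, Atf3 is a basic leucine zipper factor of the ATF and CREB family that is induced by stress, and Nr4a1, Nr4a2 and Nr4a3 are orphan nuclear receptors that act without a known natural ligand. These genes answer growth factors, depolarisation, stretch and injury, and they are also known to be induced while tissue is digested into single cells. Fos, Egr1 and Nr4a1 are switched on through the serum response factor and CREB, which bind the CArG box and the cAMP response element.

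The promoters of the 4 members that differed most between the smooth muscle-like classes or that carried the largest share of the signal, Fos, Atf3, Nr4a1 and Nr4a2, are printed to show where the core of the cAMP response element lies. Each is the RefSeq window on GRCm38.p6 from 250 bases before to 50 bases after the start of transcription, 300 bases, read 5′ to 3′ on the strand of the gene. Capitals mark TGACG, or CGTCA where the match is on the other strand. The windows lie at chr12:85473640-85473939 on the plus strand for Fos, chr1:191183284-191183583 on the minus strand for Atf3, chr15:101266596-101266895 on the plus strand for Nr4a1 and chr2:57123954-57124253 on the minus strand for Nr4a2.
Fos: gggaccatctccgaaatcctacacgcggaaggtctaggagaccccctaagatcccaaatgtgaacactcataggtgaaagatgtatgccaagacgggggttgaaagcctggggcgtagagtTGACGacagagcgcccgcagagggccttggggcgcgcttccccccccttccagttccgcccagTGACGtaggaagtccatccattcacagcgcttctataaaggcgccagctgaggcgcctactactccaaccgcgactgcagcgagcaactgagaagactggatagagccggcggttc
Atf3: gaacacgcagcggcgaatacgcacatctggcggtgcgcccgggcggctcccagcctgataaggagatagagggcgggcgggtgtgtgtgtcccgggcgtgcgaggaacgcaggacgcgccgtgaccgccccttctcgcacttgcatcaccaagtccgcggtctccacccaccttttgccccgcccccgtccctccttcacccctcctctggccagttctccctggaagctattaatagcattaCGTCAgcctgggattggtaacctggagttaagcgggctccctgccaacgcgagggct
Nr4a1: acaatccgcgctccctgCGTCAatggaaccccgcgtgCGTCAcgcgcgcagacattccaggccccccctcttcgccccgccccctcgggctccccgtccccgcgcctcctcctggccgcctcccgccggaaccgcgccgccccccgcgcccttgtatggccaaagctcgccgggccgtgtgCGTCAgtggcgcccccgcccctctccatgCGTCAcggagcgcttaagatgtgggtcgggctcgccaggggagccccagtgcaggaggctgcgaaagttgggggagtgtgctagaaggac
Nr4a2: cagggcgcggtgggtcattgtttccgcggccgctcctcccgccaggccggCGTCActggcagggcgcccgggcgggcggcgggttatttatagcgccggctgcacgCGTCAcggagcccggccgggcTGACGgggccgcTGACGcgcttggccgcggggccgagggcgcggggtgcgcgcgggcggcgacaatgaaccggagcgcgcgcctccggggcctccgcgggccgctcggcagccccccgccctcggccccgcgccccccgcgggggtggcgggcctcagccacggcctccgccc

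The motif TGACG was found on either strand in the windows of 7 of the 9 members with a RefSeq window, against 20.812% of all 32851 windows. Fos held 2 matches, whose first bases were 129 and 66 bases before the start, with TATAAA beginning 33 bases before it. Nr4a1, Nr4a2 and Nr4a3 held at least 4 matches each, a number reached by 76 of all windows (0.231%). Atf3, Fosb and Junb held 1 match each. The windows of Jun and Jund held none, and that of Jund ends before the annotated start of the counted gene at 8:70698949. The full palindrome TGACGTCA, present in 1.79% of all windows, was in the windows of 0 of 9 members, as were the AP-1 site TGACTCA (5.202%), the NR4A site AAAGGTCA (1.507%), the EGR site GCGTGGGCG (0.612%) and the CArG box (1.629%). TATAAA was in 3 of 9 members' windows and in 13.616% of all windows, with all motifs searched on both strands. TGACG is contained in TGACGTCA, so these searches overlap, and a match describes letters and not a bound site. In the GENCODE annotation of GRCm38, Atf3 (ENSMUSG00000026628) spans 1:191170296-191218039 and Nr4a1 (ENSMUSG00000023034) spans 15:101254269-101274795, so both RefSeq windows lie within the longer annotated genes. Fos (ENSMUSG00000021250) spans 12:85473890-85477273 and Nr4a2 (ENSMUSG00000026826) spans 2:57106830-57124003.

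By class mean, vascular smooth muscle-like cells held the highest level of 9 of the 10 genes among the 9 classes. Lymphatic endothelium-like cells held the lowest or next to lowest mean of 9 of 10. Jund was the exception in both. Levels are CPM, the counts of a gene scaled to the total of all gene counts, of all cells of a class summed within a mouse, averaged over mice with at least 5 cells of the class. Vascular smooth muscle-like cells had that many in 1 mouse, 20GG95:3, with 98 cells, so their level has no SD. For Jun, Fosb and Nr4a3, single mice of other classes lay above that mouse. Jun was 2491 CPM in blood endothelium-like cells of 19CB4:5, against 1871 CPM. Epithelium-like cells of 20GG79:6 had 927 CPM of Fosb against 328, and 114 CPM of Nr4a3 against 74.0.

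**Figure D1:**
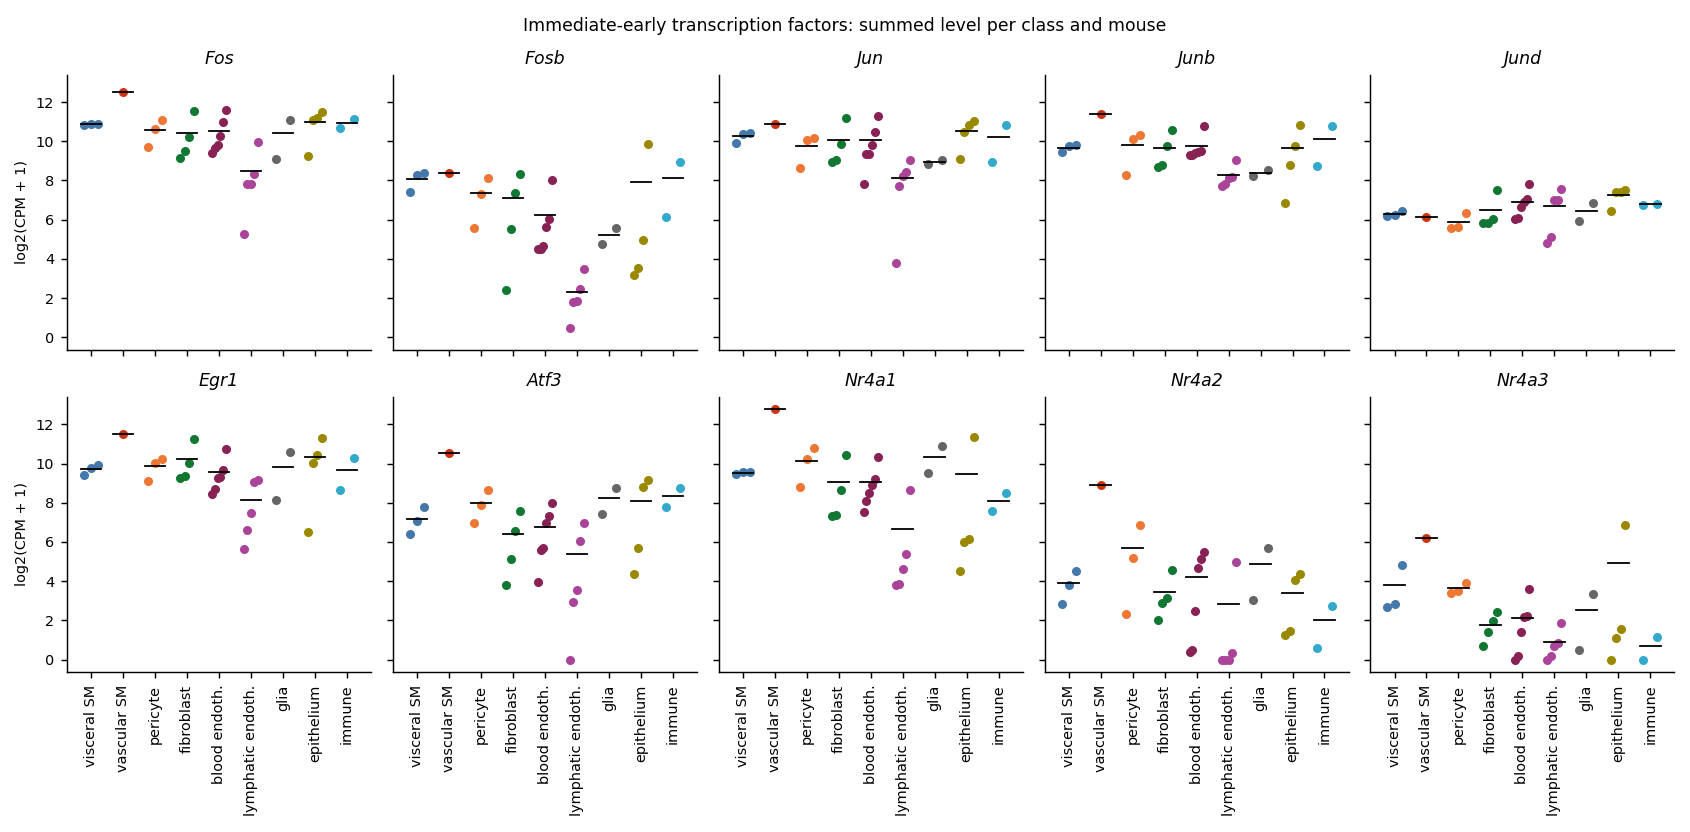
Level of each of the 10 genes as log2(CPM + 1) by class, where each point is the summed cells of 1 mouse and each bar is the log2 of the mean CPM over mice plus 1. The vascular smooth muscle-like point is the highest of the class means for every gene but Jund, and the lymphatic endothelium-like mean is lowest for Fos, Jun, Junb, Egr1, Atf3, Nr4a1 and Fosb.

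Fos stood at 5806 CPM in vascular smooth muscle-like cells of 1 mouse. It was 1999.8 ± 969.8 (SD, n = 4) in epithelium-like, 1939 ± 469 (n = 2) in immune-like, 1855 ± 8.4 (n = 3) in visceral smooth muscle-like and 1528 ± 669 (n = 3) in pericyte-like cells. Blood endothelium-like cells followed with 1462 ± 943 (n = 6), glia-like with 1372 ± 1164 (n = 2) and fibroblast-like with 1367 ± 1102 (n = 4), and lymphatic endothelium-like cells were lowest with 360.2 ± 371 (n = 5). Neighbours from epithelium to fibroblast differed by less than the larger of their SDs, while vascular smooth muscle-like cells lay above the highest mouse of every other class. The highest of those was blood endothelium of mouse 19CB4:5 with 3108 CPM.

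Nr4a1, known as an inducible receptor in muscle, immune and vascular cells, was 6954 CPM in vascular smooth muscle-like cells. The next classes were glia-like with 1310.2 ± 822 (SD, n = 2), pericyte-like with 1128 ± 654 (n = 3) and visceral smooth muscle-like cells with 733 ± 25.5 (n = 3). Epithelium-like cells had 702 ± 1301 (n = 4), blood endothelium-like 529.8 ± 407 (n = 6), fibroblast-like 524 ± 576 (n = 4), immune-like 275 ± 117 (n = 2) and lymphatic endothelium-like cells 99.1 ± 171 (n = 5). Below the vascular smooth muscle-like class, the mice of each class overlapped those of the next in this order. The epithelium-like mean rested on the mouse 20GG79:6, with 2654 CPM against 21.9 to 69.7 in the other 3 mice.

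Atf3 was 1478 CPM in vascular smooth muscle-like cells and 329 ± 151 (SD, n = 2) in immune-like cells, the next class. Glia-like cells had 302 ± 183 (n = 2), epithelium-like 272 ± 278 (n = 4), pericyte-like 256 ± 143 (n = 3), visceral smooth muscle-like 144 ± 67.2 (n = 3), blood endothelium-like 108 ± 88.7 (n = 6), fibroblast-like 83.3 ± 80.6 (n = 4) and lymphatic endothelium-like cells 41.4 ± 53.6 (n = 5). Neighbours below the first class did not differ beyond their spread. Egr1, which is induced by serum and injury, was 2915 CPM in vascular smooth muscle-like cells and between 753 ± 493 (blood endothelium-like, n = 6) and 1274 ± 1023 (epithelium-like, n = 4) in 7 other classes, with 284 ± 246 (n = 5) in lymphatic endothelium-like cells.

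Among the Jun genes, Junb was 2685 CPM in vascular smooth muscle-like cells, 1098 ± 958 (SD, n = 2) in immune-like cells and 802 ± 514 to 902 ± 518 in fibroblast-like (n = 4), epithelium-like, visceral smooth muscle-like, blood endothelium-like and pericyte-like (n = 3) cells. It was 330.0 ± 48.3 (n = 2) in glia-like and 304 ± 126 (n = 5) in lymphatic endothelium-like cells. Jun, a core AP-1 subunit, was 1871 CPM in vascular smooth muscle-like, 1468 ± 677 (n = 4) in epithelium-like and 1215 ± 224 (n = 3) in visceral smooth muscle-like cells, and lay within overlapping spreads down to 486 ± 44.7 (n = 2) in glia-like and 278 ± 185 (n = 5) in lymphatic endothelium-like cells. Jund, the Jun gene that is expressed without a stimulus in many tissues, ran in another order. It was 152 ± 44.6 (n = 4) in epithelium-like, 118 ± 60.0 (n = 6) in blood endothelium-like and 101 ± 69.6 (n = 5) in lymphatic endothelium-like cells, and lowest at 69.9 in vascular smooth muscle-like and 58.2 ± 17.9 (n = 3) in pericyte-like cells.

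Nr4a2 and Nr4a3 had low levels in most classes. Nr4a2 was 481 CPM in vascular smooth muscle-like cells, 51.3 ± 56.8 (SD, n = 3) in pericyte-like cells and between 3.06 ± 3.57 (immune-like, n = 2) and 28.8 ± 30.6 (glia-like, n = 2) in the other classes. Nr4a3 was 74.0 CPM in vascular smooth muscle-like cells, 29.2 ± 56.3 (n = 4) in epithelium-like cells and at most 13.1 ± 12.6 (visceral smooth muscle-like, n = 3) elsewhere. Fosb was 328 CPM in vascular smooth muscle-like, 281 ± 299 (n = 2) in immune-like and 270.2 ± 91.0 (n = 3) in visceral smooth muscle-like cells, and 3.98 ± 3.68 (n = 5) in lymphatic endothelium-like cells. The vascular, immune and visceral levels of Fosb lay within the spread of the immune-like mice.

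Per kilobase of exon, Fos was the most abundant member in vascular and visceral smooth muscle-like cells, and the second member differed. In vascular smooth muscle-like cells Fos was at 2469 CPM per kilobase and Nr4a1 at 1982, followed by Junb at 1167, Atf3 at 685.9, Egr1 at 650.0 and Jun at 587. In visceral smooth muscle-like cells Fos was at 789 CPM per kilobase, and Jun at 381 and Junb at 354 stood above Nr4a1 at 209. Nr4a3 was the least abundant in both, at 12.4 and 2.19 CPM per kilobase. The libraries did not keep the strand of the RNA, and 232 of 3189 exon bases of Jun overlap Junos, 173 of 2301 of Junb overlap Prdx2 and 877 of 1668 of Jund overlap Gm11175 on the opposite strand, so reads of these stretches cannot be told apart.

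In the smooth muscle and pericyte-like cells of mouse 20GG95:3, 2 plates could be read separately, and both put the vascular smooth muscle-like class first. The 10 genes together took 2.11% of all gene counts of vascular smooth muscle-like cells on plate colon_053s (52 cells) and 2.46% on plate colon_506s (46 cells). They took 0.442% and 0.614% in visceral smooth muscle-like cells of the same plates (101 and 217 cells) and 0.231% and 0.311% in pericyte-like cells (32 and 55 cells). Cells for which the 10 genes made up at least 1% of gene counts were 42 of 52 (80.8%, exact 95% interval 67.5 to 90.4%) and 34 of 46 (73.9%, 58.9 to 85.7%) vascular smooth muscle-like cells. They were 17 of 101 and 50 of 217 visceral smooth muscle-like cells and 3 of 32 and 3 of 55 pericyte-like cells. The intervals cover counting error only. The 2 classes overlapped cell by cell: 4 visceral smooth muscle-like cells on plate colon_053s and 11 on plate colon_506s were at or above the vascular median of their plate.

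Cell by cell, Fos had a median of 6234 CPM (lowest 152, highest 16051) in vascular smooth muscle-like cells on plate colon_053s and of 4867 (82.2 to 15198) on plate colon_506s. In visceral smooth muscle-like cells the medians were 421 (18.6 to 13121) and 199 (7.64 to 18286), and in pericyte-like cells 226 (33.8 to 7859) and 154 (20.0 to 8244). Every cell of the 3 classes had a Fos count. The highest visceral cell lay above the highest vascular cell on plate colon_506s and below it on plate colon_053s, and the visceral median was the lower on both. On plate colon_506s the upper quartile of visceral smooth muscle-like cells was 3624 CPM and the lower quartile 55.8 CPM, so the class held cells with high and with low Fos side by side. The 3 visceral clusters of that plate each held such levels, with summed Fos of 2141 CPM (20 cells), 1916 CPM (135 cells) and 2219 CPM (62 cells).

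By the ratio of their medians, the vascular and visceral classes lay further apart for Nr4a1 than for Fos on both plates. Its cell median was 6477 CPM (66.1 to 19016) in vascular smooth muscle-like cells on plate colon_053s and 8342 (146 to 22178) on plate colon_506s, against 97.0 (0 to 5608) and 78.6 (0 to 13378) in visceral smooth muscle-like and 136 (8.52 to 2422) and 272 (0 to 7947) in pericyte-like cells. Atf3 had cell medians of 982 and 571 CPM in vascular smooth muscle-like cells and of 4.21 and 0 CPM in the visceral class. Fos was the most abundant member in 26 of 52 vascular smooth muscle-like cells on plate colon_053s, and Nr4a1 in 27 of 46 on plate colon_506s.

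Nr4a2 was seen in a larger share of vascular smooth muscle-like cells. A count was present in 33 of 52 and 28 of 46 of them, and in 19 of 101 and 30 of 217 visceral smooth muscle-like cells of the same plates. With every cell thinned to 45388 gene counts, the shares were 44.2% and 45.7% in the vascular class and 10.9% and 7.83% in the visceral class. Nr4a3 was counted in 20 of 52 and 19 of 46 vascular smooth muscle-like cells and in 8 of 101 and 24 of 217 visceral smooth muscle-like cells. Median gene counts per cell were 153310 in the vascular and 240344 in the visceral class on plate colon_053s, and 154866 and 118627 on plate colon_506s.

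**Figure D2:**
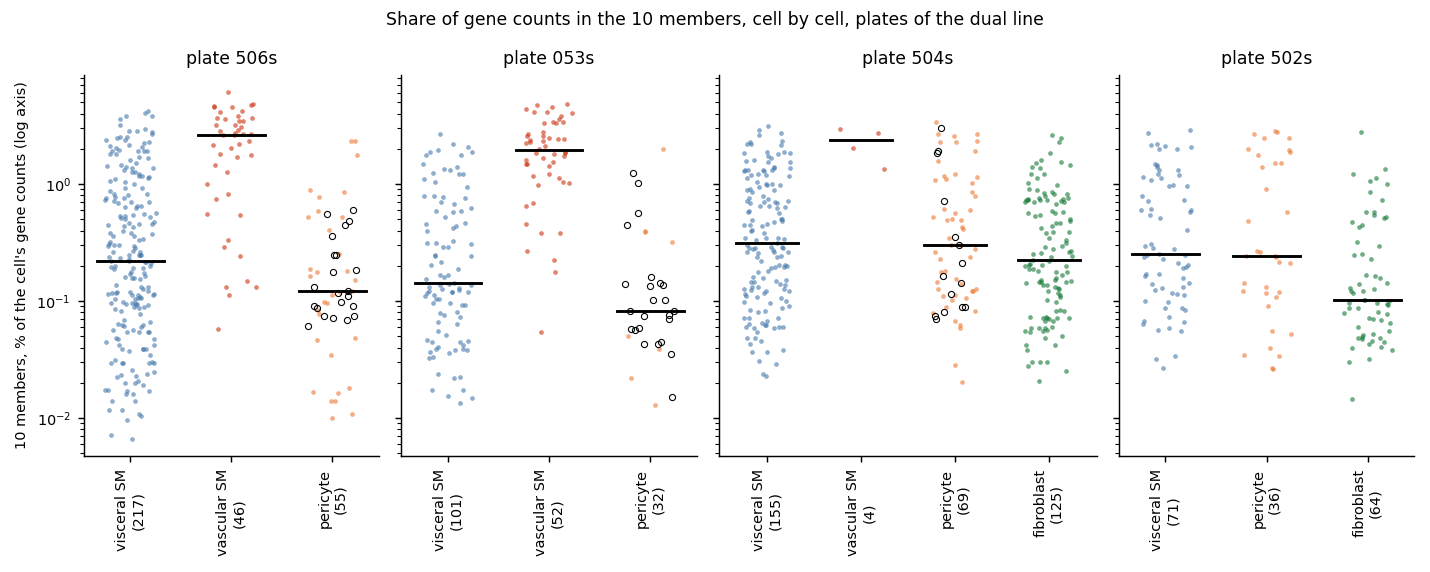
Share of gene counts taken by the 10 genes in each cell, on a logarithmic axis in percent, for visceral smooth muscle-like, vascular smooth muscle-like and pericyte-like cells of plates colon_506s, colon_053s, colon_504s and colon_502s. Fibroblast-like cells are shown on plates colon_504s and colon_502s. Lines are medians and black open circles are pericyte-like cells in plate rows that also held vascular smooth muscle-like cells. Vascular medians were 2.62% and 1.94% on plates colon_506s and colon_053s, against visceral medians of 0.218% and 0.143%.

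The vascular smooth muscle-like cells sat in their own stretches of the plates. They lay in rows H to K of plate colon_053s, B to D of plate colon_506s and D of plate colon_504s, and these rows held 0 of the visceral smooth muscle-like cells of the same plates. Pericyte-like cells lay on both sides, with 24 of 32, 22 of 55 and 15 of 69 in the rows of the vascular class. In those rows their summed Fos was 1050 CPM on plate colon_053s, 209 on plate colon_506s and 1354 on plate colon_504s. In the other rows of the same plates it was 739.9, 1015 and 2400.1 CPM. Pericyte-like cells in the rows of the vascular class lay below its level, which was 6147 CPM on plate colon_053s and 5393 CPM on plate colon_506s. Their summed Nr4a1 was 291, 541 and 923 CPM in the rows of the vascular class and 423, 509.6 and 1272 CPM in other rows. By cell median, pericyte-like Nr4a1 was higher in the rows of the vascular class on each plate. These medians were 154, 454 and 219 CPM against 74.0, 56.5 and 127 CPM in other rows. For Fos the cell medians were 226, 206 and 254 CPM against 235, 117 and 1147 CPM. Whether the sort of these rows bears on the levels of the vascular class was not tested.

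The comparison of vascular with visceral smooth muscle-like cells asks whether 2 kinds of smooth muscle in the same organ differ in these genes. The visceral sums of mice 20GG79:1, 20GG79:6 and 20GG95:3 were 1854, 1865 and 1848 CPM for Fos, 704, 748 and 749 for Nr4a1, 134, 216 and 83.0 for Atf3 and 882, 975 and 695 for Egr1. The vascular sum of 20GG95:3 was 5806, 6954, 1478 and 2915 CPM for the same genes, above every visceral mouse. A further 4 vascular smooth muscle-like cells came from mouse 20GG79:1, too few for the main sums, and they summed to 6192 CPM for Fos, 5676 for Nr4a1, 1594 for Atf3, 2742 for Egr1 and 759 for Nr4a2. The class of these 4 cells depended on the clustering. At Leiden resolution 0.5 the vascular smooth muscle-like cluster held 52 cells of plate colon_053s, 46 of plate colon_506s and none of plate colon_504s. The Fos values of the 4 cells were 4025, 6006, 6647 and 9537 CPM and their Nr4a1 values 2158, 4355, 6335 and 8406 CPM, all above the visceral sums. Single visceral smooth muscle-like cells of plate colon_504s overlapped them. Those cells reached 8611 CPM for Fos (median 879) and 5925 CPM for Nr4a1 (median 68.9).

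No member passed the test in the fit over all classes, with class and mouse as terms over 30 sums. The vascular class gave 1 of these sums, so its spread was not measured and is assumed to be that of the other classes, in every test of this class in that fit. The quasi-likelihood test of edgeR called 0 of 10 members at an adjusted p of at most 0.05, where 0% of 24180 genes were called, 6 members had an unadjusted p under 0.05, and DESeq2 called 625 genes and 0 members. The log2 difference was 3.77 ± 1.49 (SE) for Nr4a1 with an adjusted p of 0.904, 2.06 ± 0.83 for Fos (0.917), 4.33 ± 1.73 for Atf3 (0.910), 2.45 ± 0.91 for Junb (0.834) and -0.06 ± 1.21 for Jund (1). The median difference of the members was 2.40 and that of all genes -0.22. In a fit of the 2 classes alone that admitted sums of at least 4 cells, an alternative added after the data were seen, the mice 20GG79:1 and 20GG95:3 gave both classes and 1 residual degree of freedom. There 8 members were higher in vascular smooth muscle-like cells, all but Jund and Nr4a3, where 1.98% of genes were called higher. Nr4a1 was higher by 3.22 ± 0.24 (SE, adjusted p = 8.27e-37 by edgeR), Atf3 by 3.97 ± 0.39 (9.71e-22), Fos by 1.80 ± 0.22 (1.86e-13), Jun by 1.05 ± 0.28 (0.00756) and Fosb by 1.42 ± 0.44 (0.0366), each in both mice, with a median over all genes of -0.64. With 1 residual degree of freedom, these p-values rest mostly on a spread shared over all genes. They are no measure of how far mice differ in a gene, and 1 vascular sum held only 4 cells. Without the cells that carried markers of another class, the 10 genes took 2.0% of gene counts in vascular smooth muscle-like cells in place of 2.27%.

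Pericyte-like cells, the mural cells of capillaries, overlapped visceral smooth muscle-like cells for Fos, Nr4a1 and Atf3 and lay below vascular smooth muscle-like cells. Over the mice 20GG79:1, 20GG79:6 and 20GG95:3 their Fos was 2171, 1577 and 837 CPM, their Nr4a1 1196, 1746 and 442 CPM and their Atf3 237, 407 and 123 CPM. Mouse 20GG95:3 was the lowest of the 3 for each. Against visceral smooth muscle-like cells of the same mice, edgeR called 0 of 10 members where 1.94% of 15425 genes were called, 3 members had an unadjusted p under 0.05, and DESeq2 called 1731 genes and 0 members. These 3 were Fosb with a log2 difference of -1.13 ± 0.36 (SE, adjusted p = 0.229), Jun with -0.72 ± 0.25 (0.262) and Atf3 with 0.66 ± 0.27 (0.351), each in the same direction in 3 of 3 mice. Fos was at -0.49 ± 0.26 (0.53) and Nr4a1 at 0.31 ± 0.38 (0.813), with directions split over the mice.

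Against vascular smooth muscle-like cells, the log2 differences of pericyte-like cells were -2.63 ± 0.89 (SE, adjusted p = 1 by edgeR) for Fos and -3.53 ± 1.62 (1) for Nr4a1 in the fit over all classes. There 0 of 10 members and 0% of 24180 genes were called, 6 members had an unadjusted p under 0.05, and DESeq2 called 394 genes and 0 members. The added fit of the 2 classes with sums of at least 4 cells called 8 members lower in pericyte-like cells, where 1.23% of genes were called lower, with Nr4a1 at -3.34 ± 0.26 and Fos at -2.38 ± 0.24. This comparison shares its vascular sums with that of vascular and visceral smooth muscle-like cells.

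Fibroblast-like cells, the matrix-producing cells of the wall, had lower values of most members than visceral smooth muscle-like cells in the 2 mice that gave both. In 20GG79:1 and 20GG79:6, Fos was 1197 and 571 CPM against 1854 and 1865, Atf3 was 34 and 13 against 134 and 216, and Nr4a1 was 403 and 167 against 704 and 748. The groups did not overlap for these 3 genes, but 2 values against 2 often separate by chance. The share of all genes without overlap was not computed. By edgeR with mouse as a block, 0 of 10 members passed where 1.55% of 17036 genes were called, with 1 residual degree of freedom, and 5 members had an unadjusted p under 0.05. The log2 differences were -3.05 ± 0.59 (SE, adjusted p = 0.101) for Atf3, -1.21 ± 0.26 (0.124) for Fos, -1.04 ± 0.23 (0.137) for Jun, -1.53 ± 0.34 (0.140) for Nr4a1 and -1.94 ± 0.50 (0.190) for Fosb, lower in 2 of 2 mice each. DESeq2 called 5 members lower, Fos, Fosb, Atf3, Nr4a1 and Nr4a3, where it called 4.98% of genes lower. Fibroblast-like cells of mouse 19CB4:5, which had no visceral smooth muscle-like cells, stood higher with 2971 CPM of Fos and 1371 CPM of Nr4a1.

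Blood endothelium-like cells were compared with both muscle classes in the fit over all classes. Against visceral smooth muscle-like cells edgeR called 0 of 10 members where 1.32% of 24180 genes were called, 0 members had an unadjusted p under 0.05, and DESeq2 called 1551 genes and 0 members. The log2 difference of Fos was -0.35 ± 0.67 (SE, adjusted p = 1) and that of Fosb -1.70 ± 1.22 (0.739). Against vascular smooth muscle-like cells edgeR called 0 of 10 where 0.00827% of genes were called, 4 members had an unadjusted p under 0.05 (Fos, Junb, Atf3 and Nr4a2), and DESeq2 called 782 genes and 0 members. The difference of Fos was -2.41 ± 1.00 (0.71) and that of Atf3 -4.95 ± 2.0 (0.666). These comparisons share blood endothelium-like sums with each other and with those of lymphatic endothelium, glia and epithelium.

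Lymphatic endothelium-like cells, which line the vessels that drain lymph, were lower than blood endothelium-like cells of the same mice for Fos, Junb and Nr4a1. In the order of the mouse of plates colon_685s and colon_686s, 18CB109:10, 18CB39:3, 19CB27:3 and 20GG79:6, Fos was 224, 38, 222, 998 and 319 CPM in lymphatic and 669, 813, 903, 2032 and 1248 CPM in blood endothelium-like cells. It was lower in every mouse, while the lymphatic value of 19CB27:3 lay above the blood values of 3 other mice. Junb was 226, 280.1, 521, 288 and 208 CPM against 634, 727, 681, 631 and 710.0 CPM, with no overlap between the classes. The share of all genes without overlap in these sums was not computed. Nr4a1 was 40.7, 13.5, 13, 23.8 and 404 CPM against 184, 586, 272, 472 and 357 CPM, lower in 4 of 5 mice and higher in 20GG79:6.

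The test of edgeR with mouse as a block called 3 of the 8 members that passed the filter on low counts, all lower, where 4.71% of 11305 genes were called and 3.21% were called lower. Fos differed by -2.14 ± 0.43 on the log2 scale (SE, adjusted p = 0.0118), Junb by -1.25 ± 0.32 (0.0383) and Nr4a1 by -3.41 ± 0.87 (0.0430). The median over all genes was -0.69, and relative to it the differences were -1.46 for Fos, -0.56 for Junb and -2.72 for Nr4a1. Jun at -1.87 ± 0.50 (0.0518), Egr1 at -1.49 ± 0.45 (0.0895) and Fosb at -3.60 ± 1.28 (0.166) were lower in 5 of 5 mice and did not pass. Atf3 at -1.97 ± 1.6 (0.622) and Jund at -0.41 ± 0.76 (0.863) did not pass, and Nr4a2 and Nr4a3 were too low to be tested. Fos, Junb and Nr4a1 each missed the threshold under at least 1 alternative: without mouse 20GG79:6 the adjusted p of Fos was 0.0557, with DESeq2 that of Junb was 0.353, and without the block by mouse those of Fos and Nr4a1 were 0.166 and 0.400.

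The lymphatic class was low on every plate. The 10 genes together took between 0.0587% and 0.231% of gene counts on its 6 plates, with 0 cells at 1% or more among 5, 9, 5, 19, 23 and 19 cells. For the 23 cells of plate colon_685s, the exact 95% interval of that share reached up to 14.8%. In blood endothelium-like cells they took between 0.272% and 0.509% on 6 plates and 1.11% on plate colon_075s, whose mouse 19CB4:5 gave no lymphatic endothelium-like sum. There 31 of 68 blood endothelium-like cells were at 1% or more, against 2 of 61, 2 of 63, 2 of 53, 0 of 23, 4 of 32 and 9 of 57 on the others. Of the lymphatic endothelium-like cells, 79 of 80 shared plate rows with blood endothelium-like cells. Since 62 of the 80 also carried at least 2 markers of another class, the share was computed without them. It was 0.0647% in the 1 mouse that kept at least 5 cells. With all cells, the sums of the 5 mice ran from 0.0587% to 0.231%, with a mean of 0.148%.

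**Figure D3:**
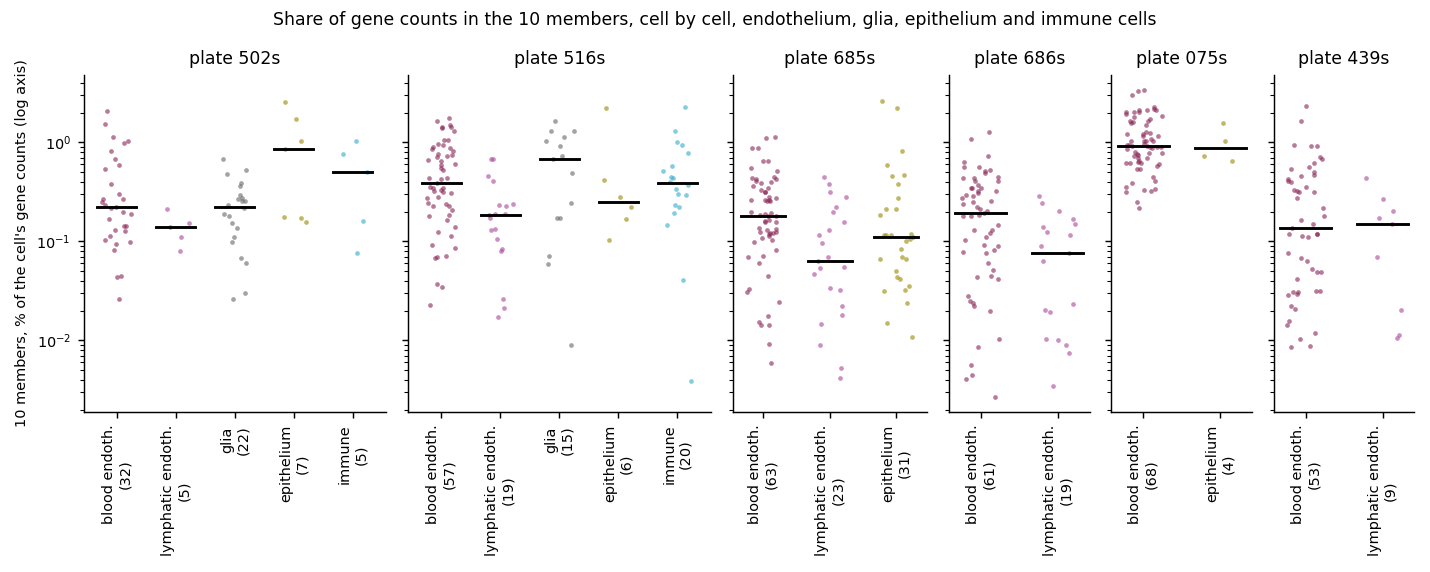
Share of gene counts taken by the 10 genes in each cell, on a logarithmic axis in percent, for the other classes of plates colon_502s, colon_516s, colon_685s, colon_686s, colon_075s and colon_439s; lines are medians. Blood endothelium-like cells of plate colon_075s had a median of 0.924%, and no lymphatic endothelium-like cell reached 1%.

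Glia-like cells, the Schwann-like support cells of enteric nerves, had more Nr4a1 than blood endothelium-like cells in both mice that gave the pair. Nr4a1 was 1891 CPM in 19CB27:3 and 729 in 20GG79:6, against 472 and 357 CPM in blood endothelium-like cells. Fos was 2195 and 549 CPM against 2032 and 1248 CPM, so its direction was split. By edgeR, 0 of 10 members passed where 7.4% of 12663 genes were called, 2 members had an unadjusted p under 0.05, and DESeq2 called 2331 genes and 0 members. Nr4a1 was at a log2 difference of 1.48 ± 0.52 (SE, adjusted p = 0.0655) and Jun at -1.26 ± 0.51 (0.137), each in the same direction in 2 of 2 mice. On plate colon_502s Nr4a1 was the most abundant member in 9 of 22 glia-like cells. Of the glia-like cells, 1 of 42 shared a plate row with a blood endothelium-like cell.

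Sums of epithelium-like cells varied widely between mice, and most held few cells. In the mouse of plates colon_685s and colon_686s, 18CB155:7, 19CB27:3 and 20GG79:6, the sums held 31, 5, 6 and 7 cells. In that order, Fos was 615, 2191, 2317 and 2876 CPM and Egr1 was 88.9, 1043, 1399 and 2565 CPM, with the first of these mice lowest in both. The 7 cells of plate colon_502s alone ran from 0.157% to 2.53% of gene counts in the 10 genes. Differences between mice thus cannot be told apart from those between the few cells drawn. Against blood endothelium-like cells of 3 mice, edgeR called 0 of 10 members where 9.57% of 13570 genes were called, 0 members had an unadjusted p under 0.05, and DESeq2 called 3033 genes and 0 members. The largest log2 difference was that of Nr4a1 at -1.6 ± 1.32 (SE, adjusted p = 0.583), lower in 2 of 3 mice. Without mouse 20GG79:6, Nr4a1 was called lower, where 5.83% of genes were called lower. Immune-like cells, led by macrophage genes, gave sums in 19CB27:3 (20 cells) and 20GG79:6 (5 cells), where Fos was 1607 and 2271 CPM, Fosb 69.6 and 492, Junb 421 and 1775 and Nr4a1 357 and 192 CPM. They were not tested against another class.

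**Figure D4:**
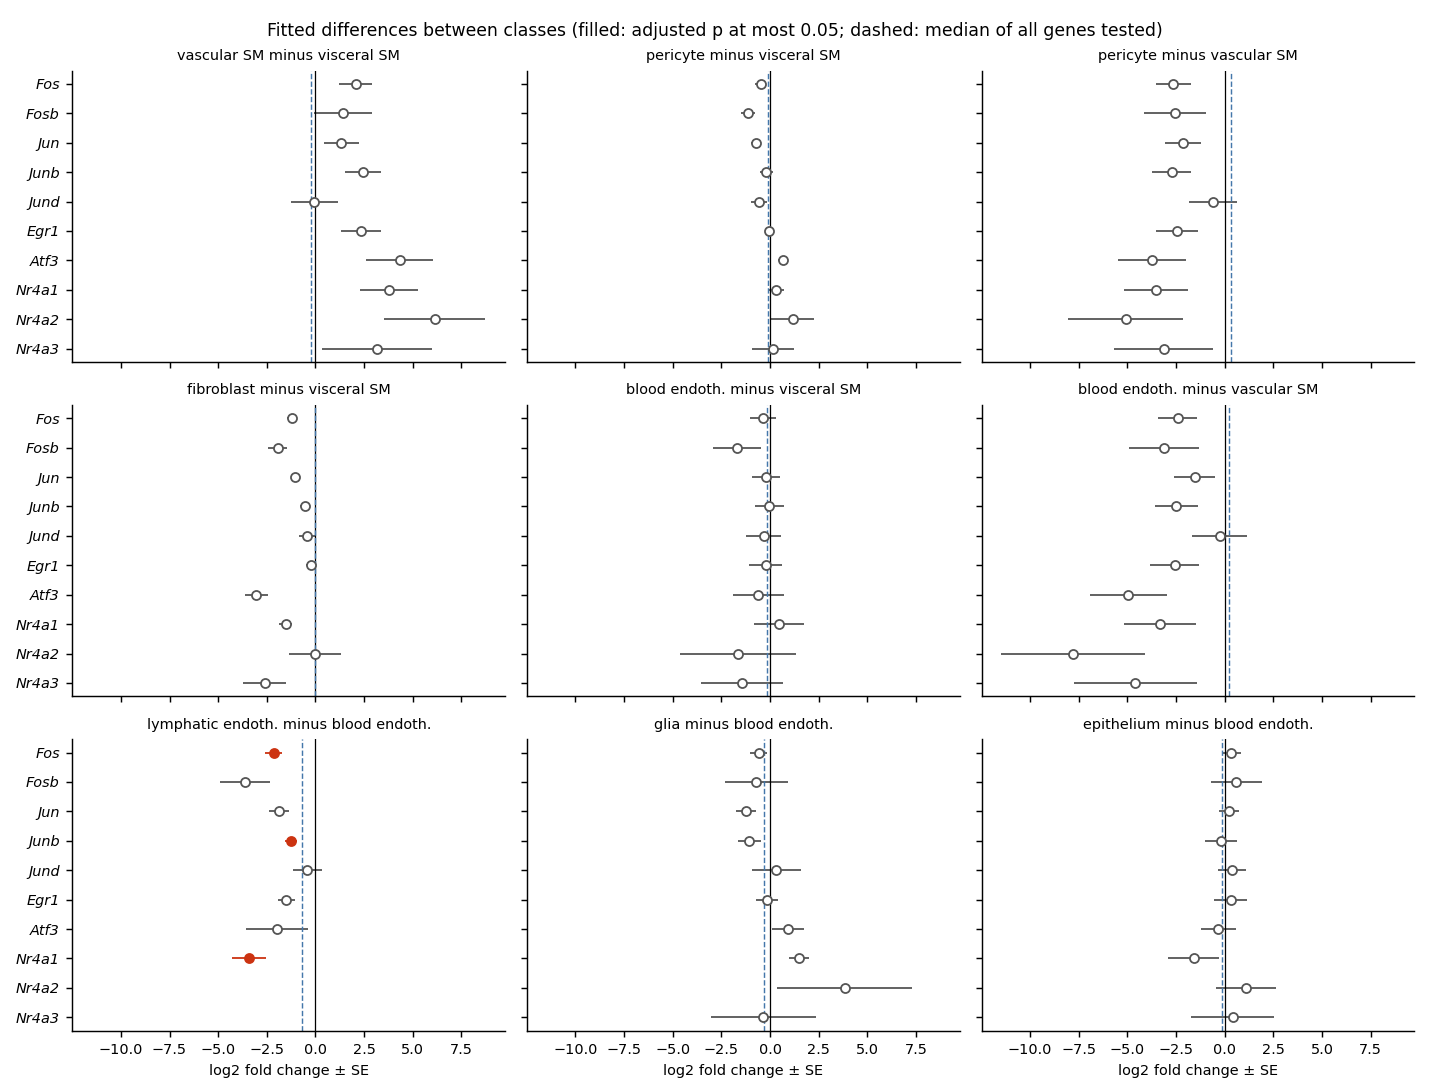
Log2 difference of each gene in 9 comparisons of classes, with bars of 1 SE from edgeR; filled red points have an adjusted p of at most 0.05 and the dashed line is the median of all genes. Fos, Junb and Nr4a1 in lymphatic against blood endothelium-like cells are the only filled points, at -2.14, -1.25 and -3.41.

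Within a class on a plate, cells high in 1 member tended to be high in others. Over 19 groups of at least 30 cells, the Spearman correlation across cells had a median of 0.63 for Junb and Egr1 (0.38 to 0.78), 0.62 for Fos and Egr1 (0.40 to 0.88), 0.59 for Fos and Junb (0.13 to 0.79) and 0.51 for Fos and Nr4a1 (0.04 to 0.70). Cells of a group share a library plate and differ in depth, and these values are descriptions without a test. The scarce Nr4a2 and Nr4a3 had a median of 0.00, and the pairs of Jund lay low. For Fos, Egr1 and Junb the positive relation held in each of the 19 groups.

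**Figure D5:**
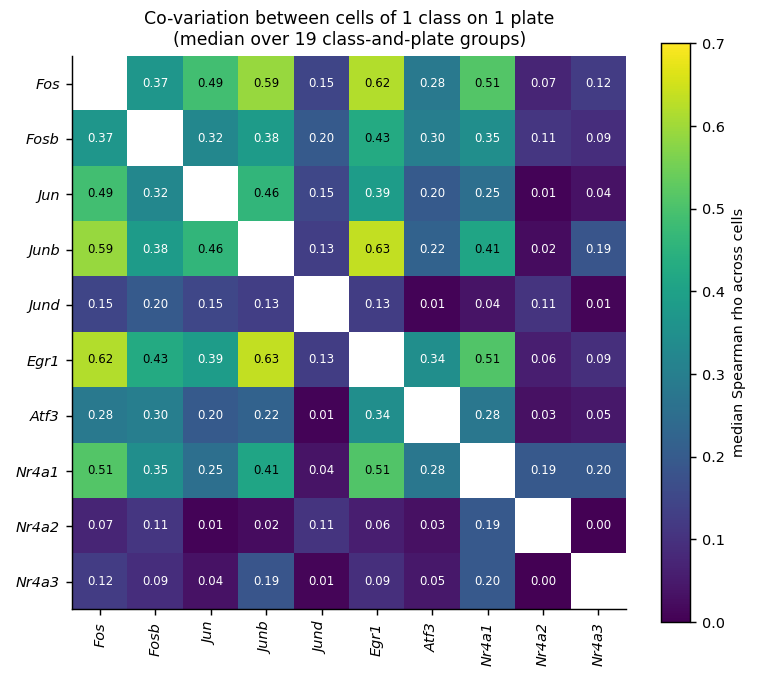
Median Spearman correlation across cells over 19 groups of a class and a plate, for each pair of the 10 genes, as a heat map from low to high. The highest medians are those of Junb with Egr1 at 0.63, Fos with Egr1 at 0.62 and Fos with Junb at 0.59.

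Other genes of the same response were read from lists made with earlier results of these data known. Between vascular and visceral smooth muscle-like cells edgeR called 0 of all 24180 genes, with 1140 at an unadjusted p under 0.05. The median log2 differences there were 0.51 for 15 other AP-1 and basic leucine zipper genes, 2.27 for 44 other early response genes, 0.20 for 26 upstream factors and kinases and 0.08 for 13 heat shock and dissociation genes, beside -0.22 for all genes. In lymphatic against blood endothelium-like cells, 5 of 40 other early response genes were lower and 1 was higher. Of all genes, 3.21% were lower and 1.49% higher. The lower genes with the smallest p were Ier2 at -1.85 ± 0.36 (SE, adjusted p = 0.00904), Ier3 at -4.01 ± 0.71 (0.00516), Id3 at -2.22 ± 0.37 (0.00322) and Zfp36, which encodes an mRNA decay factor, at -2.94 ± 0.65 (0.0211), and higher was the phosphatase gene Dusp2 at 5.93 ± 1.18 (0.0113). Of the upstream genes 1 of 24 was lower, Mrtfb, a coactivator of the serum response factor, at -4.75 ± 0.68 (0.00101). Hspb1, 1 of 13 heat shock genes, was lower as well, at -2.31 ± 0.39 (0.00344). Both counts of 1 stand beside 3.21% of all genes that were lower. The median of the 11 AP-1 relatives tested was 0.19, beside -0.69 for all genes.

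Pericyte-like cells exceeded visceral smooth muscle-like cells in 2 of 41 early response genes, Myc at 2.10 ± 0.36 (SE, adjusted p = 0.0433 by edgeR) and Id3 at 1.44 ± 0.23 (0.0352), and in 1 of 26 upstream genes, Mef2c at 1.93 ± 0.31 (0.0352), beside 1.1% of all genes that were higher. Fibroblast-like cells exceeded visceral smooth muscle-like cells in Plk2, Dusp6 and Ptgs2, 3 of 42 early response genes beside 0.687% of all genes, and were lower in Hspa1a at -1.51 ± 0.21 (0.0370) and Hspb1 at -2.40 ± 0.33 (0.0381), 2 of 13 heat shock genes beside 0.863% of all genes. Glia-like cells exceeded blood endothelium-like cells in Ccn2, which encodes a matricellular protein, at 6.72 ± 0.69 (2.91e-12), 1 of 41 early response genes beside 3.45% of all genes. They were lower in 7 of these 41, such as Sgk1 at -5.39 ± 0.92 (1.41e-05), beside 3.95% of all genes. Epithelium-like cells were lower than blood endothelium-like cells in 3 of 41 early response genes, Klf2, Plk2 and Ier5, beside 3.94% of all genes. Elk3, an ETS factor that partners the serum response factor, was lower than in blood endothelium-like cells in glia-like cells at -5.62 ± 0.85 (3.42e-07) and in epithelium-like cells at -6.26 ± 0.98 (0.00464).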

How the data were processed

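The authors' deposited table holds raw read counts per gene and cell with no normalization, and the submitters' processing notes name bcl2fastq, Bowtie, Bowtie2, Subread and featureCounts with the build GRCm38 (mm10). Their versions, order and strand setting were not given in the sources used here. Spike-ins (92) were left out, and 46005 of 46517 identifiers were matched to a symbol. Limits of 20000 gene counts and 1000 genes per cell removed 0 cells, and no doublet caller was run. Cells were clustered in scanpy 1.11.5 on 2096 genes, none of them a member, with 20 principal components, 15 neighbours and Leiden resolution 1.

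Counts were summed per class and mouse with at least 5 cells and tested with edgeR 4.0.16, with Benjamini-Hochberg adjustment over all genes tested and the labelled mouse as a block. For both vascular smooth muscle comparisons and for blood endothelium against each muscle class, fewer than 2 mice gave both classes, so a fit of all classes with class and mouse as terms (30 sums, 12 residual degrees of freedom) was used. DESeq2 1.42.0, other size factors, no filter on low counts, thinned cells, classes without mixed cells and left-out mice were alternatives. With mouse as a block, p-values rest on how far class differences vary between mice, together with a spread shared over genes. For the 1 vascular smooth muscle sum, this variation is taken from other classes. Exact (Clopper-Pearson) intervals cover counting error only, since reads carried no molecular identifiers. In edgeR fits with 1 residual degree of freedom, the p-values rest mostly on the spread shared over all genes tested. The 10 members were named without a measured value in the rule, but they and the lists were chosen with earlier results of these data known. All 10 members are named, and at most 4 genes per list and direction, those of smallest p.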

Additional observations from a re-analysis of the deposited data

Results flagged for a closer look

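Of 40 groups of a gene and a class with 4 to 6 mice, 13 had 1 mouse that stood apart from the others by Dixon's rule. Its cut-offs give about 1 in 20 groups for independent, normally distributed values. Here CPM was used without a log, and the genes share mice and cells, so the 13 cannot be set against that rate. Some flagged sums were small: 5 lymphatic endothelium-like and 7 epithelium-like cells of 20GG79:6, and 5 fibroblast-like cells of 19CB38:5. Blood endothelium-like cells of mouse 19CB4:5 stood high in 5 genes against the other 5 mice. There Junb was 1785 CPM against 631 to 727, Egr1 was 1704 against 353 to 804, Nr4a1 was 1307 against 184 to 586, Fosb was 263 against 21.5 to 65.0, and Nr4a3 was 11.2 against 0 to 3.75.

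Epithelium-like cells of mouse 20GG79:6 stood high in Nr4a1 with 2654 CPM against 21.9 to 69.7 in 3 other mice, in Fosb with 927 against 8.21 to 30.7 and in Nr4a3 with 114 against 0 to 2.0. They stood low in Jund, with 85.1 CPM against 169.8 to 180.4. In lymphatic endothelium-like cells, Nr4a1 was 404 CPM in 20GG79:6 against 13 to 40.7 in 4 other mice, Junb was 521 in 18CB39:3 against 208 to 288, and Nr4a2 was 30.5 in 19CB27:3 against 0 to 0.273. Jund in fibroblast-like cells was 179 CPM in 19CB38:5 against 54.9 to 63.7 in 3 other mice.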

How the results depend on the processing

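No log2 difference of a called member changed direction under any setting tried. Of the alternatives of the members called in a comparison, 114 stayed within 1.5 times and 21 moved. All comparisons but that of lymphatic with blood endothelium-like cells called 0 members in the main fit. For those, an unmoved count means that 0 stayed 0 and is no measure of stability. In lymphatic against blood endothelium-like cells, 3 members were called with the block by mouse and 0 without this pairing, 5 with no filter on low counts (2.96% of all genes called), 5 with cells thinned to 1 depth (6.3%), 1 without cells carrying markers of another lineage (2.62%) and 1 in plate rows that hold both classes (2.72%). Leaving out each mouse gave 1 to 3, with 1 without 18CB109:10, 19CB27:3, 20GG79:6 or the mouse of plates colon_685s and colon_686s. The fits without the block changed no other count of members called. Between vascular and visceral smooth muscle-like cells 1 member, Nr4a1, was called with no filter (0.209% of genes) and 1 without mixed cells (0.172%), and 8 in the added fit of 2 classes (3.9%). Between pericyte-like and vascular smooth muscle-like cells 2 were called with no filter (0.0537%) and 8 in the added fit (2.02%). Fibroblast-like against visceral smooth muscle-like cells gave 5 with DESeq2 (11% of genes), 4 with no filter (1.79%), 3 after thinning (3.38%) and 1 without mixed cells (3.02%). Blood endothelium-like against vascular smooth muscle-like cells gave 1 without mixed cells (0.488%) and 1 without cells carrying markers of another lineage (0.369%), and epithelium-like against blood endothelium-like cells gave 0 to 1 over left-out mice, with 1 without 20GG79:6 (14.3%). The cause was not tested. The share of the 10 genes in vascular smooth muscle-like cells was 2.46% without plate colon_053s, 2.11% without plate colon_506s, 2.0% without mixed cells and 2.26% after thinning. It was 0.0647% in lymphatic endothelium-like cells without mixed cells, where only 1 mouse kept at least 5 cells. The main sums of the 5 mice ran there from 0.0587% to 0.231%, with a mean of 0.148%. In epithelium-like cells it was 0.166% without mixed cells or without cells carrying markers of another lineage. Again only 1 mouse kept at least 5 cells, that of plates colon_685s and colon_686s. This mouse was at 0.166% in its main sum too, so leaving out cells barely moved it. The mean of the main sums over 4 mice was 0.696%. Few mice limit these results: vascular smooth muscle-like cells rest on 1 mouse, and fibroblast-like and glia-like pairs on 2 mice, where no mouse could be left out. Without mixed cells the paired fits of lymphatic endothelium and epithelium gave no value.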

Other observations

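Over 30 sums of a class and a mouse, the genes whose level followed the mean of the 10 members most closely were ranked among 4863 genes outside the members with a mean of at least 50 CPM, as a description with no test, since sums of a mouse share a plate and sums of a class share its genes. The closest was Hspa1a, which encodes an inducible heat shock protein, with a Spearman correlation of 0.80. It was followed by Ppp1r15a, which encodes a stress-induced phosphatase subunit, at 0.78, and by Junos, the transcript that overlaps Jun on the other strand, at 0.77. Dusp1, a phosphatase gene of the early response, was at 0.74, Gem, which encodes a small GTP-binding protein, at 0.73 and Socs3 at 0.69. The muscle genes Des at 0.70 and Dmpk at 0.69 and the channel gene Ano1 at 0.71 were in the same 10, as was Rbpms2 at 0.74.

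Of these 10, Hspa1a stood in the heat shock list, and Dusp1 and Socs3 in the early response list. Hspa1a was lower in fibroblast-like than in visceral smooth muscle-like cells, at 467 against 1221 CPM, and lower in glia-like than in blood endothelium-like cells, at 221 against 1002 CPM with a log2 difference of -2.18 ± 0.58 (SE, adjusted p = 0.00721 by edgeR). Blood endothelium-like cells exceeded visceral smooth muscle-like cells in Klf2, a gene induced by shear stress, at 512 against 9.59 CPM, with a log2 difference of 5.44 ± 1.21 (adjusted p = 0.0204), and in Dusp6 at 4.05 ± 0.84 (0.0114). Klf2 was also lower in epithelium-like than in blood endothelium-like cells, at -4.82 ± 0.90 (0.01000).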
